A study of Homo sapiens with 4 samples.

Results

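DNA methylation at 6 genes that make or use S-adenosylmethionine, the methyl donor of the cell, was described from methylated DNA immunoprecipitation sequencing (MeDIP-seq) of C4-2B cells. C4-2B is a castration-resistant prostate cancer line derived from LNCaP. The genes were MAT1A, GNMT, BHMT, MAT2A, AHCY and NNMT, and a peak belonged to a gene when it overlapped that gene's fixed hg19 span by at least 1 bp. Of 296521 peaks of the knockout list 50 did so, and of 261657 peaks of the control list 49 did. The knockout cells carried a guide RNA that targets PKCλ/ι (the product of PRKCI, an atypical protein kinase C), and the control cells carried the guide named sgC. All cells were untreated C42B cultures harvested 48 h after plating, at about 70% confluency. Each genotype gave 1 library immunoprecipitated with an antibody against 5-methylcytosine and 1 input library of unprecipitated DNA. The labels do not say whether the cells were a clone or a pool. With 1 library in each of the 4 groups no difference below has a replicate check, no test between genotypes was possible, and intervals cover counting error only.

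S-adenosylmethionine is made from methionine and ATP by methionine adenosyltransferase. MAT1A encodes its catalytic subunit of adult liver, and MAT2A the one that most other tissues and tumours use. Methyltransferases such as GNMT, which methylates glycine, and NNMT, which methylates nicotinamide, turn S-adenosylmethionine into S-adenosylhomocysteine. AHCY, which cells generally express, hydrolyses that product to homocysteine and adenosine, and BHMT, an enzyme mainly of liver and kidney, methylates homocysteine back to methionine with betaine. The series sets loss of PKCλ/ι beside serine and one-carbon metabolism, so these loci ask whether the genes of the methyl donor pathway carry different methylation in knockout cells.

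Because the antibody captures fragments that carry several methylated cytosines, a stretch with few CG dinucleotides gives little signal even when fully methylated. The promoters are therefore shown first, as annotated by RefSeq in GRCh38.p14, from 250 bases before to 50 bases after the gene start, with every CG in capitals. They are reference sequence, not reads of these cells, and their GRCh38 positions are not comparable with the hg19 positions of the peaks. The 5 genes with a matching entry are shown, AHCY by the outermost of its 3 listed starts. The lines are MAT1A at chr10:80289609-80289908 (minus strand), GNMT at chr6:42960504-42960803 (plus strand), BHMT at chr5:79111559-79111858 (plus strand), MAT2A at chr2:85538918-85539217 (plus strand) and AHCY at chr20:34311753-34312052 (minus strand).
MAT1A: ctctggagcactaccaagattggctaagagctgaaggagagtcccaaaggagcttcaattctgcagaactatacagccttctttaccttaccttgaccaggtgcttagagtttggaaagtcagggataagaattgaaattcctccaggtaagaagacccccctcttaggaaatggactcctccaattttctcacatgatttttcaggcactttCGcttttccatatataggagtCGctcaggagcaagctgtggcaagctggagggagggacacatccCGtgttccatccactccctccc
GNMT: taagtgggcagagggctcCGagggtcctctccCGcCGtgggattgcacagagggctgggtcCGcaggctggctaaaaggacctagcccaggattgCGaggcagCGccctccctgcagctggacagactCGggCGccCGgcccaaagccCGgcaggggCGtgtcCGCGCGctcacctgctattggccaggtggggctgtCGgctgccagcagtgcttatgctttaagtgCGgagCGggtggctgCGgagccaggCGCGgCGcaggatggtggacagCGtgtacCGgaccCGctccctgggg
BHMT: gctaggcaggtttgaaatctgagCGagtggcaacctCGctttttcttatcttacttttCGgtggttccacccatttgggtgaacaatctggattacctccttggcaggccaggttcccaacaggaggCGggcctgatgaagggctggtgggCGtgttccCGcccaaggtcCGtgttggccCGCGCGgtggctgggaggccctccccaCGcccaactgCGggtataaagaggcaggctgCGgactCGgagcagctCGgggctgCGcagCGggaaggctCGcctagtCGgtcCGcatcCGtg
MAT2A: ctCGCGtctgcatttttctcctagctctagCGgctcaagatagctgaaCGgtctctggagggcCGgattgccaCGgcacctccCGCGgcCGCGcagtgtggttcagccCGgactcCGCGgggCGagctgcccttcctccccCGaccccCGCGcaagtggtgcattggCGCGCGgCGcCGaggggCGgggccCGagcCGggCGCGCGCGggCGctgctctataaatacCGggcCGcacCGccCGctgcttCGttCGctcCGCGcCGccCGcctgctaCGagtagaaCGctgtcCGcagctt
AHCY: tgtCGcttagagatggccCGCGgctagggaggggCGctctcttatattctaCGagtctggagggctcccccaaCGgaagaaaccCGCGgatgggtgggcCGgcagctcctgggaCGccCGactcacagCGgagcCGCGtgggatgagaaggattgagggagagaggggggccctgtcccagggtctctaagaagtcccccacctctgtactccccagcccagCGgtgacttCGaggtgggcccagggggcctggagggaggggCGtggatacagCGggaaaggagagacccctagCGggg

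The promoters ran from CG-poor to CG-rich. MAT1A held 3 CG in 300 bases, a number that 81.8% of the 35116 promoters in the table reached or passed. BHMT held 21 (39.5% reached or passed it) and GNMT 24 (33.9%), while MAT2A held 43, reached by only 4.98%. The promoters in the table had a median of 14, with quartiles of 4 and 28. AHCY held 19 at its outermost start and 24 and 39 at the inner starts. The liver-type genes thus differ among themselves, with MAT1A far below GNMT and BHMT.

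Across the 6 genes both genotypes held about as many methylated regions. The spans covered 197 kb and held 2.54 peaks per 10 kb in the knockout and 2.49 in the control, against 0.985 and 0.870 over the whole lists. Peaks covered 17.6% of the spans in the knockout and 15.5% in the control, against 5.88% and 5.01% of the genome. Pileup, the number of overlapping fragments at a peak's summit, was set against each library's genome-wide mean, 4.42 in the knockout and 2.92 in the control, a ratio of 1.51 taken as the difference in depth. The median member peak stood at 9.38 times that mean in the knockout and 8.55 times in the control, against 8.14 and 8.55 over all peaks. Peaks with −log10 q of at least 10, called strong here, numbered 38 of 50 in the knockout, where 74.5% of all peaks were strong, and 29 of 49 in the control, where 57.0% were. The members were therefore close to the rest of their list in strength. Their density was above that of the whole lists but near that of their surroundings, since the 100 kb to each side of the 6 spans held 2.79 peaks per 10 kb in the knockout and 2.43 in the control.

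**Figure D1:**
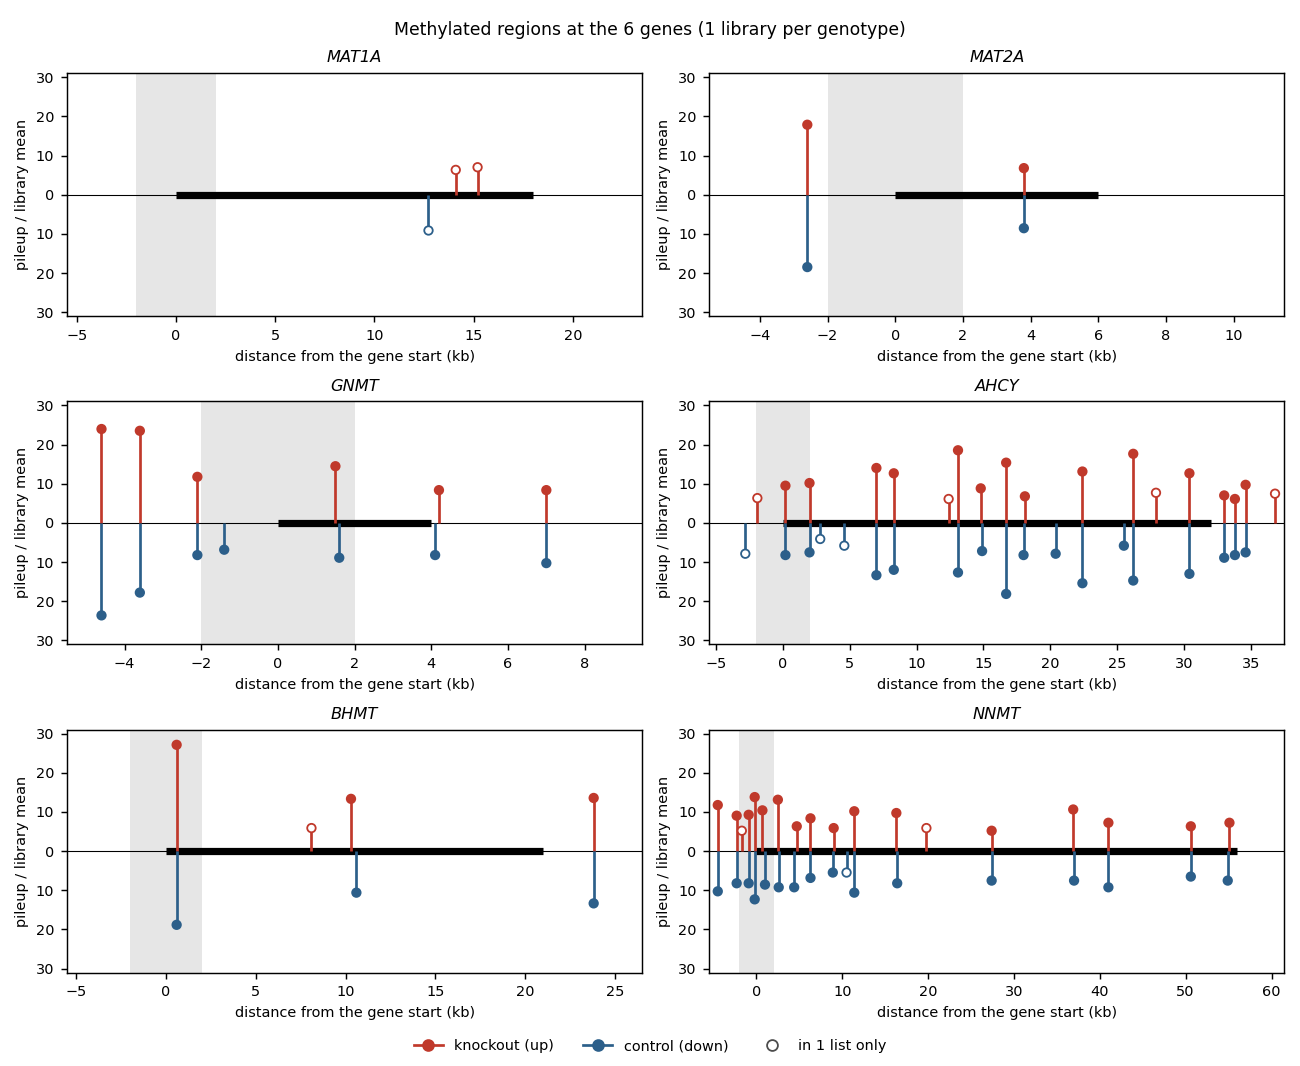
Each panel shows 1 gene, with peak summits at their distance from the gene start (kb, read in the gene's direction) and stems giving pileup divided by the library's genome-wide mean, knockout upward and control downward. Grey marks 2 kb to each side of the start, the black bar the gene from its assumed start, and open points are peaks in 1 list only; MAT1A and MAT2A have no peak in the grey window, while BHMT has its highest one there in both genotypes.

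Positions within genes were read from the spans, because no hg19 annotation was used. The gene start was taken as the point 5 kb inside the span's start-side edge, which would mark the outermost start where a gene has several. This margin is assumed and its accuracy was not tested, so start windows and distances below are relative to that point. The start window reached 2 kb to each side.

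MAT1A, the liver catalytic subunit, was the emptiest of the 6 loci. Its span on chromosome 10 from 82.026 to 82.054 Mb held 2 knockout peaks and 1 control peak, and none of the 3 overlapped a peak of the other genotype. The knockout peaks lay in the body at 82033534 to 82033937, with a pileup of 31 (21.1 to 44.0), and at 82034703 to 82035039, with a pileup of 28 (18.6 to 40.5). The control peak lay at 82036156 to 82036502, with a pileup of 26 (17.0 to 38.1). All 3 lay 12.7 to 15.2 kb inside the gene, and the start stood in a peak-free stretch of 17.5 kb. The density was 0.714 peaks per 10 kb in the knockout and 0.357 in the control, and the 100 kb to each side held 1.5 in the knockout and 1.00 in the control. No peak was thus listed around the MAT1A start in either genotype, at a promoter with 3 CG.

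MAT2A, the catalytic subunit of most other tissues, also had no peak at its start, with a promoter rich in CG. Its span on chromosome 2 from 85.761 to 85.777 Mb held 2 peaks in each genotype, and both were shared. The upstream one, 2.6 kb before the start at 85762876 to 85763672 in the knockout, had a pileup of 79 (62.5 to 98.5) in the knockout and 54 (40.6 to 70.5) in the control. In units of the library mean these were 17.9 and 18.5, so the genotypes were nearly level. The body peak, 3.8 kb after the start at 85769574 to 85769986 in the knockout, had a pileup of 30 in the knockout and 25 in the control. Between the pair of peaks lay 5.89 kb without any peak in either list, and it held the start. MAT1A and MAT2A were therefore alike in having an unlisted start, while the numbers of CG in their promoters were the lowest and the highest of the 5 genes.

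GNMT, the glycine N-methyltransferase, was a short gene with dense peaks around it, and its flanks were dense in peaks as well. Its span on chromosome 6 from 42.923 to 42.937 Mb held 6 knockout peaks and 7 control peaks, which covered 40.4% and 37.3% of it, and each overlapped a peak of the other genotype. The highest, 4.6 kb before the start at 42923054 to 42923702 in the knockout, had a pileup of 106 (86.8 to 128) in the knockout and 69 (53.7 to 87.3) in the control. Relative to the library means these were 24.0 and 23.6. The next, 3.6 kb before the start, had a pileup of 104 in the knockout and 52 in the control. One more upstream stretch, from 42925588 to 42927194, was 1 knockout peak with a pileup of 52 and a pair of control peaks with pileups of 24 and 20.
A stretch of 2.02 kb without a peak in either list lay at the start point, though that point is an assumed one. The next peak, 1.5 kb after the start at 42929217 to 42930201 in the knockout, had a pileup of 64 (49.3 to 81.7) in the knockout and 26 (17.0 to 38.1) in the control. Its depth-scaled log2 ratio of 0.70 (0.02 to 1.42) was the highest of all pairs at the 6 genes. The local background at this peak was also higher in the knockout, by 0.32 on the same log2 scale, and its part in the ratio was not tested.

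NNMT, the nicotinamide N-methyltransferase, carried many peaks of moderate height. Its span on chromosome 11 from 114.123 to 114.189 Mb, the longest of the 6, held 18 knockout peaks and 17 control peaks, of which 16 and 16 were shared. The highest lay at the outermost start, at 114127407 to 114128036 in the knockout, with a pileup of 61 (46.7 to 78.4) in the knockout and 36 (25.2 to 49.8) in the control, or 13.8 and 12.3 times the library means. The start window held 3 more knockout peaks, 1.7 and 0.9 kb before and 0.7 kb after the start, with pileups of 23, 41 and 46. It held 2 more control peaks, 0.9 kb before and 1.0 kb after the start, with pileups of 24 and 25. The outermost start of NNMT was thus lined with peaks in both genotypes. Pileups over the whole span went down to 23 in the knockout and 16 in the control. Inner starts of NNMT were not placed.

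AHCY, the hydrolase of S-adenosylhomocysteine, held peaks along most of its length. Its span on chromosome 20 from 32.863 to 32.905 Mb held 18 knockout peaks and 19 control peaks, covering 33.2% and 28.2%. Body peaks numbered 11 in the knockout and 13 in the control. The highest knockout peak, 13.1 kb inside at 32886288 to 32887157, had a pileup of 82 (65.2 to 102) in the knockout and 37 (26.1 to 51.0) in the control. The highest control peak, 16.7 kb inside, had a pileup of 68 in the knockout and 53 in the control. By pileup, then, the 2 genotypes did not rank these neighbours the same way. By the authors' fold enrichment, which divides pileup by local background, both genotypes ranked the peak at 13.1 kb higher. Its fold was 11.7 against 6.62 in the knockout and 7.27 against 5.89 in the control. The depth-scaled log2 ratio of each peak had a counting interval that held 0. The widest peak of the locus, 3540 bp at 32876798 to 32880337 in the knockout, had a pileup of 58 in the knockout and spanned 2 control peaks of 45 and 23.
At the outermost start a peak at 32899520 to 32899918 in the knockout had a pileup of 42 (30.3 to 56.8) in the knockout and 24 (15.4 to 35.7) in the control. These were 9.49 and 8.21 times the library means, so the peak was of ordinary height. A peak 2.0 kb inside had a pileup of 45 in the knockout and 22 in the control, and one 1.9 kb before the start was listed in the knockout only. The longest peak-free stretch of the locus was 3.61 kb, from 32887832 to 32891445, between 8.6 and 12.2 kb inside the gene. The inner starts of AHCY, which have more CG than the outermost one, were not placed in hg19. In GRCh38 the inner promoters lay at 34303306 to 34303605 (24 CG) and 34302941 to 34303240 (39 CG). The outermost one lay at 34311753 to 34312052. With the same distances in hg19 from the assumed start, the first falls within a knockout peak at 32891446 to 32892052. Most of it also falls within the control peak paired with that one. Both summits lie 8.3 kb inside, with a pileup of 56 in the knockout and 35 in the control. The second then lies just inside the peak-free stretch, next to this peak. Both lie close to the edge of the stretch, so a small error in the assumed start would change this reading. The exact placement was not tested.

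BHMT, the betaine-homocysteine methyltransferase, differed from the other liver-type genes in having its peak of highest pileup at the start. Its span on chromosome 5 from 78.402 to 78.433 Mb held 4 knockout peaks and 3 control peaks, and all but 1 were shared. The start peak, at 78407277 to 78408855 in the knockout and 78407244 to 78408143 in the control, had a pileup of 120 (99.5 to 143) in the knockout and 55 (41.4 to 71.6) in the control. In units of the library mean it stood at 27.1 in the knockout, above every other knockout peak at the 6 genes, and at 18.8 in the control. The peak was also longer in the knockout, at 1579 bp against 900 bp in the control. Length was not scaled for depth, and 21 of the 36 pairs at the 6 genes were longer in the knockout. Their median length was 602 bp in the knockout and 546 bp in the control. Its depth-scaled log2 ratio was 0.53 (0.06 to 1.01). The local background at the summit was 13.2 in the knockout and 7.05 in the control, a scaled log2 difference of 0.31, and the authors' fold enrichment, which divides by that background, was 8.53 in the knockout list and 6.96 in the control list. By that fold the start peak was not the highest of BHMT. The body peak 10.3 kb inside had 11.1 in the knockout. In the control the peak past the gene end had 10.2. The part of the background in the ratio was not tested.
Further along BHMT, a body peak 10.3 kb inside had a pileup of 59 in the knockout and 31 in the control, and a peak past the gene end had 60 in the knockout and 39 in the control. A body peak at 78414976 to 78415285, with a pileup of 26, was listed in the knockout only. From 78417884 to 78430571 neither list held a peak.

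Taken as groups, MAT2A with AHCY held more peaks per length than the liver-type genes. Over the whole spans, however, the genes inside each group were further apart than the groups. The density was 1.64 peaks per 10 kb in the knockout and 1.51 in the control for MAT1A, GNMT and BHMT, and 3.45 and 3.62 for MAT2A and AHCY. In the knockout GNMT and AHCY both had 4.29 peaks per 10 kb, BHMT 1.29 and MAT2A 1.25. In the control GNMT had 5.00, AHCY 4.52, MAT2A 1.25 and BHMT 0.968. These spans include an assumed 5 kb to each side, and GNMT had 0 body peaks past its start window in either list. Body peaks numbered 4 in the knockout and 2 in the control for the liver-type genes. For MAT2A and AHCY they numbered 12 and 14. Without the outer 5 kb the liver-type genes held 1.40 and 1.16 peaks per 10 kb. MAT2A with AHCY then held 3.68 and 4.21. Differences between single genes were not computed for these shorter spans. The order of the loci followed their surroundings in part. The 100 kb to each side of GNMT held 4.65 peaks per 10 kb in the knockout and 4.30 in the control, and those of AHCY 3.45 and 3.15, the highest of the 6. MAT2A was sparser than its flanks, which held 2.90 in the knockout and 2.95 in the control, and so was BHMT, whose flanks held 2.00 and 1.55. NNMT, with 2.73 and 2.58, was denser than its flanks, with 2.25 and 1.65.
Peak height did not sort by group. The median pileup over all peaks of the liver-type genes was 12.5 times the library mean in the knockout and 10.3 in the control, against 9.61 and 8.21 for MAT2A and AHCY, of which AHCY gave most peaks. By gene, however, the medians were 13.5 in the knockout and 13.3 in the control at BHMT, 13.1 and 8.90 at GNMT and 6.67 and 8.90 at MAT1A, while MAT2A had 12.3 and 13.5 and AHCY 9.61 and 8.21. Peaks at the start points taken here were found in both groups, but for MAT2A and AHCY only at the outermost start of AHCY. The inner starts of AHCY, with more CG, do not enter this comparison. By their GRCh38 distances from the assumed start, the first falls within a peak shared by both genotypes. The second falls just inside the longest peak-free stretch of that locus, and neither placement was tested. The start window held 1 peak in each genotype at BHMT, 2 in the knockout and 3 in the control at GNMT, 3 in the knockout and 2 in the control at AHCY, and none in either at MAT1A and MAT2A.

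**Figure D2:**
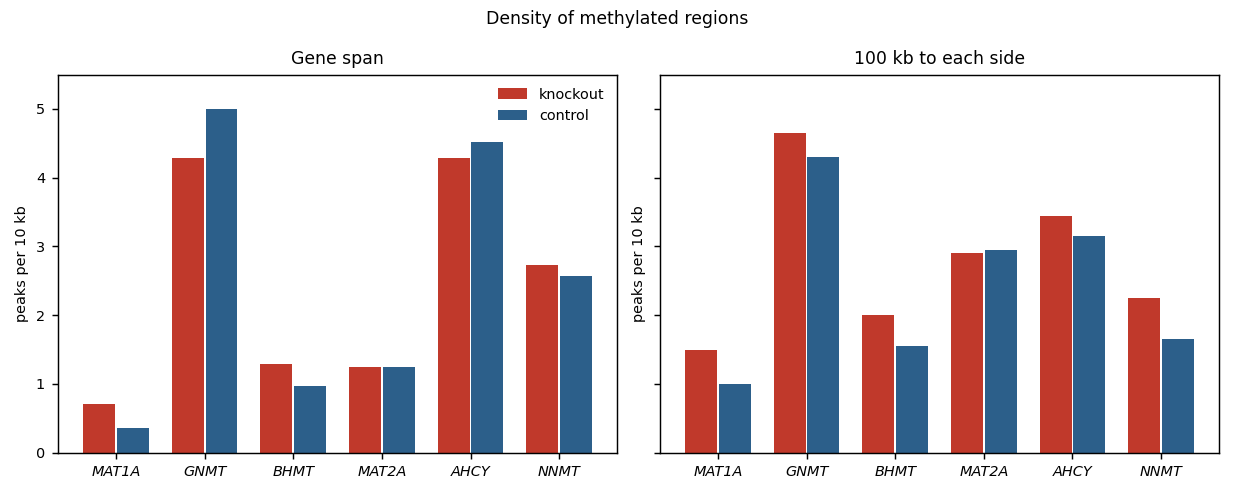
Bars give peaks per 10 kb in the span of each gene (left) and in the 100 kb to each side of it (right), for the knockout and the control, 1 library each. GNMT and AHCY have over 4 peaks per 10 kb of span in both genotypes, MAT1A has under 1, and flanks of GNMT and AHCY are also the densest.

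Where a region was listed in both genotypes, most differences in level were within counting error. Peaks that overlapped exactly 1 peak of the other list formed 36 pairs at 5 genes, with none at MAT1A, and hold by construction only regions called in both. The median log2 ratio of pileup, knockout over control, scaled by the library means, was 0.08 (order-statistic interval -0.05 to 0.28), against 0.04 over all 206556 pairs. The ratio was above 0 in 22 of 36 pairs, and in 54.6% of all pairs. Gene medians were 0.33 at BHMT (3 pairs), 0.12 at NNMT (14), 0.08 at AHCY (12), 0.03 at GNMT (5) and -0.19 at MAT2A (2). Pairs within 1 Mb of each span had medians of 0.08 around BHMT, 0.03 around NNMT, 0.05 around AHCY, 0.07 around GNMT and -0.12 around MAT2A. Of the 5, MAT2A alone had a negative median, and its surroundings were negative as well. Pileup follows the number of copies of a locus as well as its methylation, and these were not separated here.
The counting interval lay wholly above 0 in 2 of 36 pairs, where 2.31% of all pairs did, and these were the start peak of BHMT and the GNMT peak just after its start. It lay wholly below 0 in 0 pairs, where 0.889% of all pairs did. A difference of at least 1.5-fold upward was found in 1 pair, that of GNMT, where 5.14% of all pairs passed, and downward in 0 pairs, where 3.60% did. Counts this small do not set the members apart from all pairs. The lowest ratio of the 36 was at NNMT, 4.7 kb inside the gene, at -0.55 (-1.36 to 0.27), with a pileup of 28 in the knockout and 27 in the control. The highest of NNMT, 2.5 kb inside, was 0.51 (-0.18 to 1.22), with a pileup of 58 in the knockout and 27 in the control. At AHCY ratios ran from -0.43 at 33.8 kb to 0.55 at 13.1 kb, and at MAT2A from -0.33 in the body to -0.05 upstream, each with an interval that held 0. The lowest of GNMT, 7.0 kb past its start, was -0.30 (-1.03 to 0.45), and the lowest of BHMT, past the gene end, was 0.02 (-0.58 to 0.64).

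**Figure D3:**
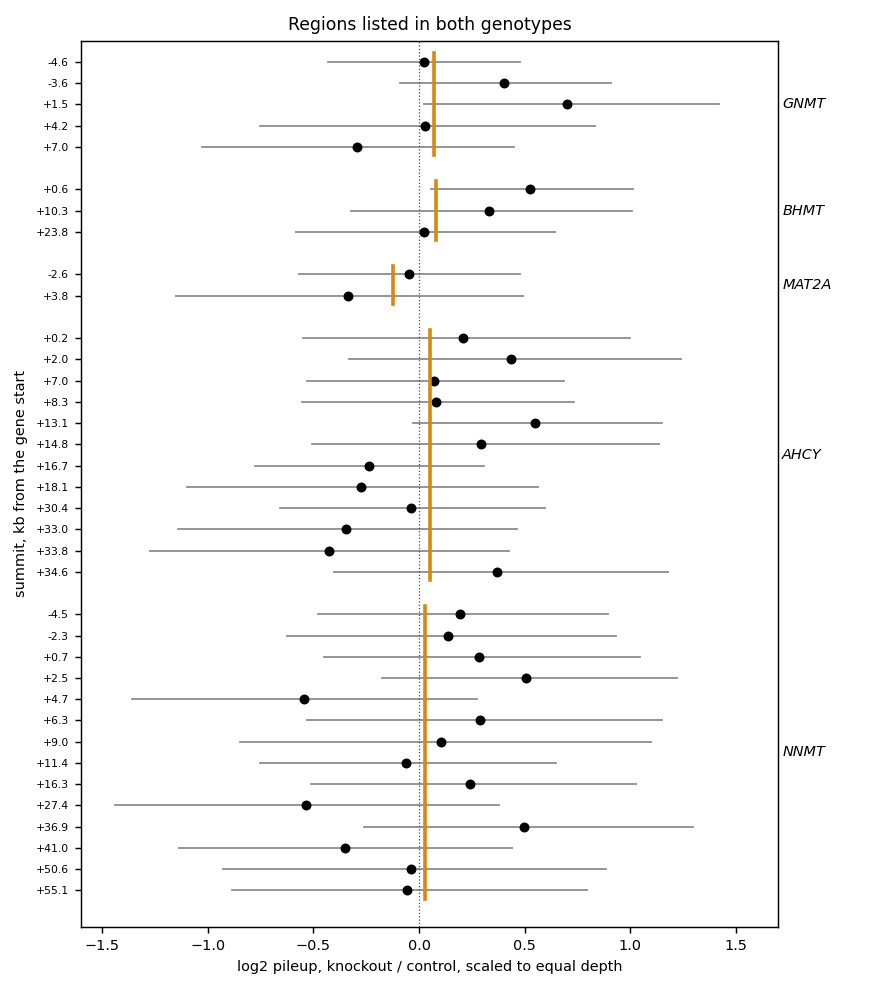
Points give log2 of knockout pileup over control pileup, scaled to equal depth, for the 36 regions listed once in each genotype, ordered by distance of the knockout summit from the gene start, and grey lines give 95% counting intervals. Orange bars mark the median of the pairs within 1 Mb of each gene; every interval reaches 0 except those of GNMT at 1.5 kb and BHMT at 0.6 kb, which lie above it.

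Regions listed in 1 genotype only were few and of modest height. They numbered 9 of 50 in the knockout, or 18.0%, where 23.9% of all knockout peaks lacked a control peak. In the control they numbered 5 of 49, or 10.2%, where 12.1% of all control peaks lacked a knockout peak. AHCY held 4 of the 9 and 3 of the 5, MAT1A 2 and 1, NNMT 2 and 1, BHMT 1 and 0, and GNMT and MAT2A none in either. Pileups ran from 23 to 34 in the knockout and from 12 to 26 in the control.
The highest knockout-only peaks were at AHCY, at 32871947 to 32872384 with a pileup of 34 and at 32862955 to 32863327 with a pileup of 33. The other knockout-only peaks of AHCY started at 32887463 and 32901724, with pileups of 27 and 28, and the control-only ones at 32895193, 32896994 and 32902669, with pileups of 17, 12 and 23. At NNMT the knockout-only peaks started at 114126222 and 114147629, with pileups of 23 and 26, and the control-only one at 114138317, with a pileup of 16. Brought to the control's depth, the 9 knockout-only pileups would be 15.2 to 22.5, while the control list held peaks with pileups as low as 11 to 13 at a like background. The 5 control-only pileups, brought to the knockout's depth, would be 18.2 to 39.4, while the knockout list went down to 14 or 15. Scaled in this way each of the 14 would have cleared the lowest listed pileup of the other genotype. That bar is the minimum of many peaks, and the 14 were picked for being listed in 1 genotype. Clearing it therefore cannot tell a difference from depth. For control-only peaks the outcome was nearly fixed. At the lowest background control peaks began at 10 and knockout peaks at 14. With a depth ratio of 1.51, any control peak listed there clears the knockout bar. The lists give no value where no peak was called, so the size of these differences is not known.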

How the data were processed

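MeDIP-seq used an antibody against 5-methylcytosine on sonicated genomic DNA, with 1 immunoprecipitated and 1 input library per genotype. Per the submitters' processing notes, BWA aligned reads to hg19, FastQC was used and MACS2 called peaks. Not given in the sources used here were their versions, their settings and the treatment of duplicates. The authors deposited lists, 1 per immunoprecipitated library, that give positions counted from 1, the unscaled pileup signal at each summit, the authors' fold enrichment, a ratio of pileup to local background, and −log10 p and −log10 q values, of which the lowest −log10 q was 2.00 in the knockout and 2.01 in the control. Library totals were not listed, so depth is known only through the mean below.

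The local background was recomputed from pileup and fold. Its lowest value, 4.42 in the knockout and 2.92 in the control, served as the genome-wide mean pileup. The Poisson tail with this background matched the listed −log10 p within 0.000573. Log2 ratios were scaled by these means, which removes any change common to the genome. Intervals (95%) are exact Poisson for a pileup, exact Clopper-Pearson on the knockout share of both pileups for a ratio, and order-statistic for a median. Backgrounds within 10% counted as alike. Strands came from RefSeq entries of GRCh38.p14, which matched 5 of 6 genes, and that of NNMT from general knowledge. The genes, spans and lists were chosen with earlier results of these data known. All 6 genes are named, with each gene's highest peak, start-window peaks, peaks in 1 list only and extreme ratios. A planned list of further pathway genes was not analysed here, since no hg19 annotation was used. Python 3.11.15 and scipy 1.17.1 were used, tested on simulated data. Alternatives covered thresholds, overlap, spans, windows, scaling and pairing.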

Additional observations from a re-analysis of the deposited data

How the results depend on the processing

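Counts and densities were held to 1.5 times, shares and the median ratio to their 95% intervals. The 11 results were computed under 30 alternatives: 23 kept to the bounds, 7 moved past them and 0 changed sign. The 2 alternatives chosen after seeing the data, leaving out MAT2A and keeping low backgrounds, were among the 23. The median log2 ratio stayed between 0.04 and 0.09 under all 6 of its alternatives. With a fold enrichment of at least 5 the spans held 29 knockout and 31 control peaks, and with −log10 q of at least 10 they held 29 control peaks, fewer by construction. At that −log10 q 92.1% of knockout peaks had a control peak, and MAT2A with AHCY held 2.07 control peaks per 10 kb, still above the 1.23 of the liver-type genes. Start windows of 1 kb held 6 knockout peaks and those of 3 kb held 15 control peaks, as their width sets. At 3 kb MAT2A gained 1 peak in each genotype, the upstream one, and MAT1A had none at any width. No paired analysis was possible because there was only 1 library per group. Depth limits the lists at weak regions, since neither gives values below its threshold.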
